A study of Mus musculus with 28 samples.

Results

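Mouse embryonic stem (ES) cells that lack Dicer and carry DICER1 E1705K were compared directly with cells of the same genotype that carry DICER1 D1810Y. The comparison rests on 6 of the 28 arrays of the series, 3 for each mutant, chosen by their titles. Both mutants were expressed in Dicer-/- ES cells from the vector pLD-puro-ENvA. In E1705K a lysine replaces a glutamate, and in D1810Y a tyrosine replaces an aspartate. All other arrays of the Dicer-null cells were used to estimate the spread and to place the pair. They carried an eGFP vector (n = 3 arrays), DICER1 D1709A (n = 4) or wild-type DICER1 (n = 4) in ENvA, or D1709N (n = 2), E1813Q (n = 2) or wild-type DICER1 (n = 2) in pLD-puro-PGKnvA. The untransduced Dicer-/- line (n = 3) and a Dicer+/+ line (n = 2) completed the set. All cells were grown in ES medium and collected in log phase. The labels do not say whether the 3 arrays of a mutant came from separate cultures or from separate clones. The p-values thus reflect the spread among arrays alone, and that spread may be technical.

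DICER1 cuts hairpin precursors of microRNAs (miRNAs) with a pair of RNase III domains, and its RNase IIIb domain makes the cut that frees the 5p strand. E1705, D1709, D1810 and E1813 lie in that domain and hold the metal ions needed for the cut, so DICER1 proteins altered there still give 3p strands while 5p strands are lost. Both mutants compared here therefore belong to 1 class of tumour hotspot mutations. In ES cells the miR-290 and miR-302 families act through their 3p strands and let-7 through its 5p strand. ES cells can lean towards a naive state, close to the inner cell mass, or a primed state, close to the later epiblast. The arrays measured mRNA and some miRNA precursors, and mature miRNAs were not measured.

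Values are log2 expression levels, differences are given as E1705K minus D1810Y on the log2 scale, and a gene is called at an adjusted p under 0.05 in limma. Array medians over all 28 arrays lay between 7.14 and 7.27. The number of arrays limits the precision, and the median standard deviation (SD) of a gene was 0.0578 among the E1705K arrays and 0.0624 among the D1810Y arrays. Exact linear relations between the deposited values tie array 1 of E1705K to the first arrays of 4 other groups, none of them D1810Y. The labels and processing notes do not say whether sets of arrays were adjusted to each other before deposit. Without array 1 of E1705K 1670 genes were called and 90 changed at least 1.5-fold, against 2353 and 94 with it. Another relation ties the fourth D1709A array to the fourth wild-type DICER1 array. The relations leave fewer free residuals than the 18 degrees of freedom of the model, so p-values are approximate. These 2 arrays stand apart from their groups, and counts below are given without them where leaving them out moves a count by over 1.5 times. Background was not measured on the arrays, and changes are given without a size where either mutant's mean lay below the filter level of 6.42.

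Dicer1, the gene deleted in the host cells, read 9.24, 9.27 and 9.39 on the E1705K arrays and 9.27, 9.27 and 9.30 on the D1810Y arrays. The groups overlapped, and the difference of 0.02 was not called (adjusted p = 0.876, limma). Means of the Dicer-/- groups ranged from 8.91 to 9.39, against 10.68 ± 0.05 (SD, n = 2) in the Dicer+/+ line. The labels do not say which species the transgene comes from, so this mouse probe set does not measure how strongly either mutant was expressed.

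E1705K and D1810Y cells differed in the mRNA level of many genes by small amounts and of few genes by large amounts. Of 13956 genes tested, 1331 (9.54%) were called higher in E1705K and 1022 (7.32%) lower, together 2353 (16.9%). The median size of a called difference was 0.25, and 94 genes (0.674%) were called and changed at least 1.5-fold, 37 higher in E1705K (0.265%) and 57 lower (0.408%). At least 2-fold, 8 genes were lower; the 2 that passed this bound in the other direction, C330024D21Rik and Usp26 (named after their values were seen), had D1810Y means under 6.42 and are given without a size. Every E1705K array lay above every D1810Y array for 3183 genes (22.8%) and below for 2436 (17.5%). Samples with the same number deviated together (correlations 0.47, 0.68 and 0.21), a pairing inferred from these same values. Array 3 of E1705K correlated more with array 1 of D1810Y (0.41) than with array 3. With the replicate number as a block in a fit of the 6 arrays 5799 genes were called (41.6%), of which 2352 were among the 2353. With this block 3291 genes (23.6%) were higher and 2508 (18%) lower, so list counts with it have a larger background. Without arrays 4 of D1709A and of wild-type DICER1, 3987 genes were called, 2249 higher and 1738 lower. List counts without these arrays thus also have a larger background than in the main fit. The count of genes changed at least 1.5-fold was 96 in both of these fits, 38 higher and 58 lower. With each array centred on its median, 920 genes were called higher and 1307 lower, and 28 and 70 at least 1.5-fold. The balance of directions also depended on single arrays. At least 1.5-fold, 47 genes were higher and 43 lower without array 2 of E1705K, 45 and 39 without array 1 of D1810Y, and 30 and 77 without array 2 of D1810Y. Over all called genes, 786 were higher and 855 lower without array 3 of E1705K, and 876 and 888 without array 2 of D1810Y.

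**Figure D1:**
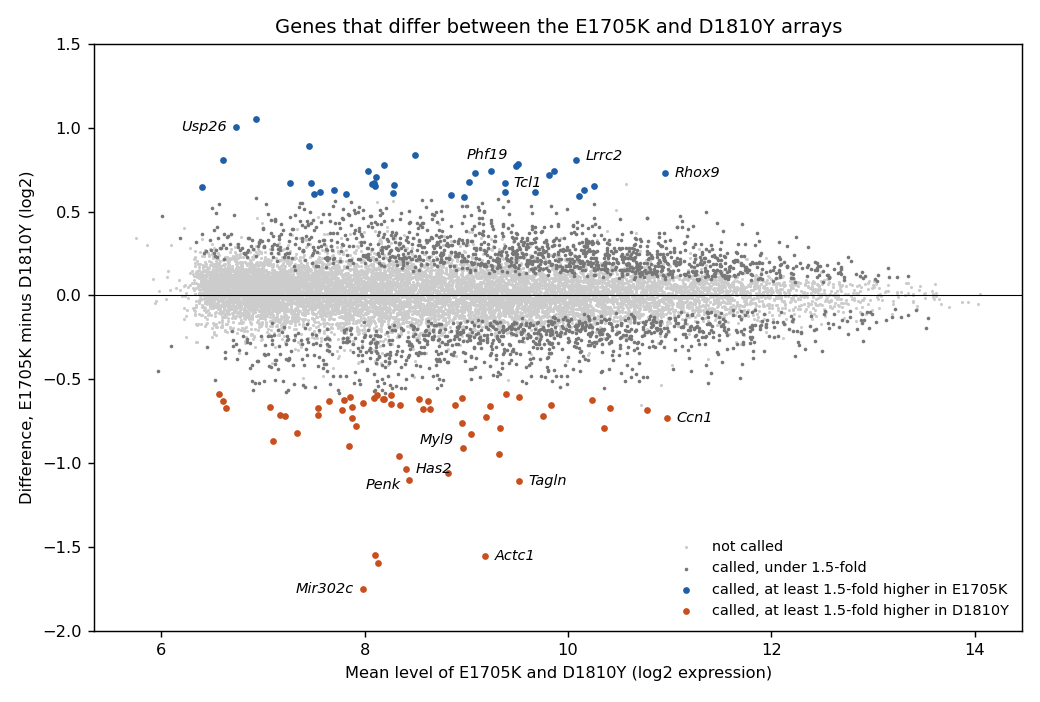
Each point is 1 of 13956 genes, with the mean log2 level of the E1705K and D1810Y groups on the x axis and the log2 difference E1705K minus D1810Y on the y axis. Light grey points were not called, dark grey points were called with a change under 1.5-fold, and blue and orange points were called and changed at least 1.5-fold; the lowest points are Mir302c at -1.75 and Actc1 at -1.56.

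Among the genes tested, 3 of the 4 largest differences lay at 1 miRNA locus, and the other was Actc1. The miR-302 cluster encodes miRNAs that are abundant in primed pluripotent cells, and its hairpins lie within 580 bases of chromosome 3 (chr3:127545228-127545807, plus strand, GRCm38.p6), inside the gene Larp7. The hairpin sequences are shown from RefSeq with bases 2 to 8 of the annotated 3p strand in capitals, because these hairpins are among the 4 largest differences and the 3p strand is the strand that RNase IIIb mutants can still release.
Mir302b: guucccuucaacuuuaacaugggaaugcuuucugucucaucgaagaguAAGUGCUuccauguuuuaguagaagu
Mir302c: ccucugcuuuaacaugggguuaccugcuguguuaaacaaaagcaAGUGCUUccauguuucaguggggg
Mir302d: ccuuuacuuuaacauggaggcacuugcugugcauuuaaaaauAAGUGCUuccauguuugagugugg
Mir302b and Mir302d share the seed AAGUGCU, and the annotated 3p strand of Mir302c starts further along, which shifts its seed to AGUGCUU.

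The Mir302c probe set read 7.29, 6.72 and 7.32 in E1705K and 9.03, 8.63 and 8.91 in D1810Y. The difference was -1.75 (standard error, SE, 0.28), or 3.36-fold lower in E1705K, with an adjusted p of 9.70e-05 in limma. Mir302d read 7.41, 7.18 and 7.41 in E1705K and 8.99, 8.77 and 9.03 in D1810Y. It was 3.02-fold lower in E1705K (difference -1.59, SE 0.24, adjusted p = 4.51e-05, limma). Mir302b read 7.40, 7.06 and 7.52 in E1705K and 8.96, 8.75 and 8.91 in D1810Y, or 2.92-fold lower (difference -1.55, SE 0.28, adjusted p = 3.19e-04, limma). For none of these 3 hairpins did the groups overlap, and arrays numbered 2 gave the lowest value in both groups. All 3 calls held under each alternative that tested them, with the adjusted p at most 0.00345 in limma when 1 array was left out. miRNA hairpins lie outside the rule for named genes, so this locus was chosen after its values were seen.

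Mir302a and Mir367 of the same cluster missed the expression filter and were tested only without it. Mir302a read 6.79, 6.14 and 6.64 in E1705K and 8.58, 7.93 and 8.33 in D1810Y, a difference of -1.76 with an adjusted p of 5.24e-05 in limma. Mir367 read between 4.72 and 5.32 in E1705K and between 6.12 and 6.96 in D1810Y, and no size is given because the E1705K mean lies under 6.42. Larp7, which encodes a protein of the 7SK small nuclear RNA complex, lies on the same stretch of chromosome. It was not called, at 11.33, 11.38 and 11.43 in E1705K and between 11.14 and 11.40 in D1810Y. Its strand was not compared with that of the hairpins, so its level does not stand for the transcript that carries them. The probe sets cannot tell the primary transcript, the hairpin and the mature strands apart.

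D1810Y stood above all other groups for each of the 5 hairpin probe sets. For Mir302c the median was 7.71 in eGFP cells, 7.13 in D1709A, 6.93 in D1709N and 6.90 in E1813Q, close to the 7.29 of E1705K. Wild-type DICER1 cells had a median of 4.66 and the untransduced Dicer-/- line 5.50, both under the filter level. Mir302b ran from a median of 4.52 in wild-type DICER1 cells to 7.70 in eGFP cells and 8.91 in D1810Y. The E1705K arrays thus overlapped those of D1709A at both hairpins, while the D1810Y arrays lay above all others.

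**Figure D2:**
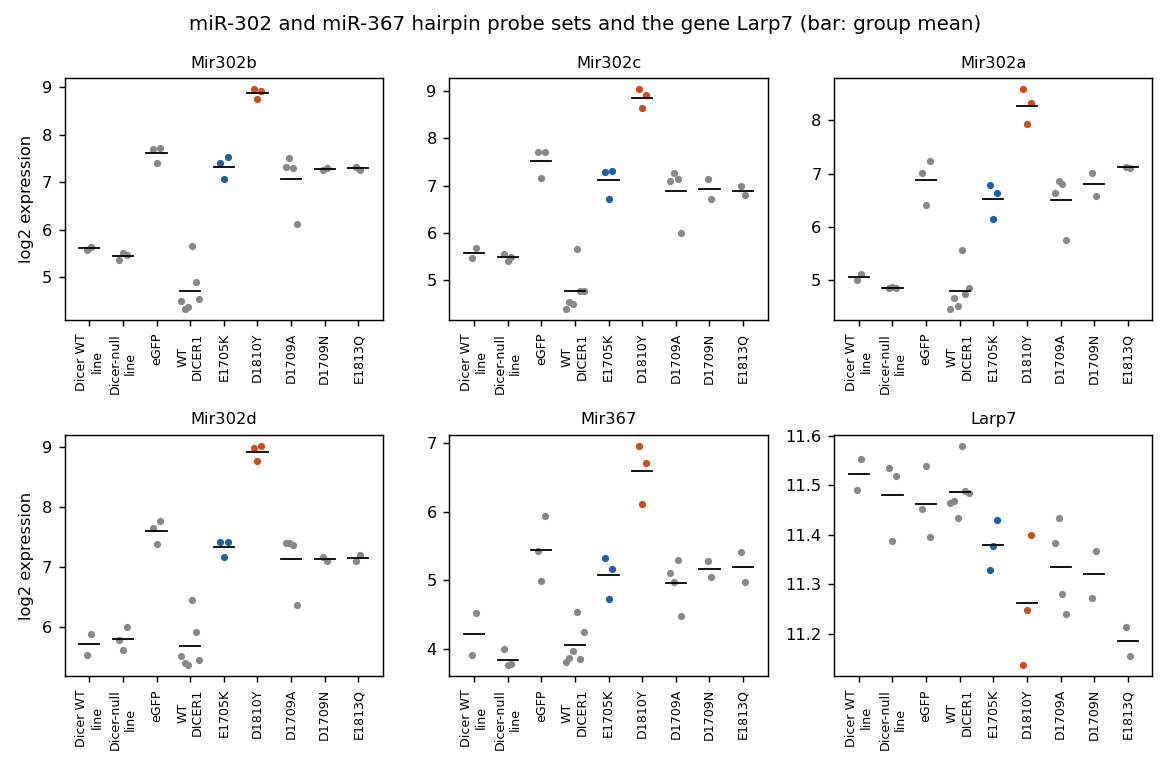
Log2 levels of the 5 hairpin probe sets of the miR-302 cluster and of Larp7 on all 28 arrays, 1 point per array, with a bar at the mean of each group; E1705K is blue, D1810Y orange and all other groups grey. The D1810Y points for Mir302c, between 8.63 and 9.03, lie above every other array, while Larp7 has no such pattern.

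Of 112 genes with miRNA symbols that passed the filter, 1 was called higher and 5 lower in E1705K, against 9.54% and 7.32% of all genes. Of those lower, Mir302b and Mir302c passed the filter only through the D1810Y arrays. The 112 include the host genes Mir17hg and Mir99ahg, which were not called. Beside the 3 hairpins above, Mir363 was lower (8.06, 7.81 and 8.18 against 8.73, 8.53 and 8.74; difference -0.65, adjusted p = 2.03e-04, limma). Its 3p strand shares the seed AUUGCAC with that of Mir367. Mir6516 was lower by a small amount (difference -0.13, adjusted p = 0.0483, limma), a call lost without array 1 or 3 of E1705K or array 2 or 3 of D1810Y (up to 0.222). Mir505 was the 1 hairpin called higher in E1705K (8.87, 8.96 and 8.92 against 8.19, 8.04 and 8.01; difference 0.84, adjusted p = 1.52e-04, limma).

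Targets of serum response factor (SRF) and of the co-activator YAP were mostly lower in E1705K than in D1810Y. SRF drives many genes of actin filaments and of muscle, and YAP many genes of growth and of the matrix. Of 21 tested genes in a list of SRF and YAP targets, 16 were called lower in E1705K and 0 higher, against 7.32% called lower over all genes. The median difference of the list was -0.31, against 0.02 for all genes. With the replicate block 18 members were called lower, against 18% of all genes. Without arrays 4 of D1709A and of wild-type DICER1, 18 were called lower as well, against 1738 of all 13956 genes. The mean level of the list was 9.59 to 9.61 on the E1705K arrays and 9.98 to 10.05 on the D1810Y arrays. D1709A arrays 1 to 3 read 9.99 to 10.04, beside D1810Y, and its array 4 read 9.67. The level was 9.67 to 9.69 in D1709N, 9.86 to 9.91 in E1813Q, 9.77 to 10.13 in wild-type DICER1 and 9.15 to 9.22 in eGFP cells.

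Actc1, the cardiac alpha-actin and a gene outside the list, read 8.47, 8.47 and 8.28 in E1705K and 9.94, 9.79 and 10.17 in D1810Y. It was 2.94-fold lower in E1705K (difference -1.56, SE 0.28, adjusted p = 2.94e-04, limma), the largest change of any gene with an ordinary symbol. Tagln, the actin-binding protein transgelin, read 8.87, 8.97 and 9.06 against 10.04, 10.07 and 10.10. It was 2.15-fold lower (difference -1.11, SE 0.26, adjusted p = 0.00436, limma). For both genes the groups lay far apart relative to their own spread.

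Myl9, the regulatory light chain of smooth muscle myosin, read 8.51, 8.48 and 8.55 in E1705K and 9.55, 9.30 and 9.42 in D1810Y, 1.88-fold lower. Cnn1, the smooth muscle calponin, read 8.84, 8.87 and 8.85 against 9.80, 9.67 and 9.92, 1.92-fold lower, and its call was marginal (adjusted p = 0.0444, limma). Leaving out any 1 of the 6 arrays ended the call of Cnn1 (adjusted p between 0.0731 and 0.129 in limma). Its error is estimated from all groups, and without arrays 4 of D1709A and of wild-type DICER1 its adjusted p was 2.54e-10 in limma. Ccn1, a matrix protein and a standard YAP target, read 10.57, 10.60 and 10.66 against 11.33, 11.35 and 11.34, 1.66-fold lower with an adjusted p of 1.27e-08 in limma.

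Called members with smaller differences were Tgfb1i1 (-0.68), Lats2 (-0.53), Amotl2 (-0.51), Cnn2 (-0.46), Ajuba (-0.38), Tpm2 (-0.35), Tpm1 (-0.31), Acta2 (-0.28), Ccn2 (-0.27), Crim1 (-0.26), Flna (-0.22) and Axl (-0.21). Lats2 and Amotl2 are inhibitors of YAP that YAP itself induces. Srf (-0.24, adjusted p = 0.13), Vcl (-0.16), Ankrd1 (-0.08), Filip1l (-0.04) and Actb (-0.04), the cytoplasmic beta-actin, were not called in limma. The difference of beta-actin was thus far smaller than those of the muscle actins Actc1 and Acta2. Without 1 array, Tpm1 and Acta2 lost their call in all 6 fits and Cnn2 in 5 (adjusted p of up to 0.115), and Axl without array 2 of E1705K or array 1 or 3 of D1810Y (0.0620), and the list kept 11 to 13 calls. Without arrays 4 of D1709A and of wild-type DICER1 the adjusted p in limma was 1.46e-09 for Tpm1, 8.64e-04 for Acta2, 7.29e-09 for Cnn2 and 0.00684 for Axl.

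The binding motif of SRF is the CArG box. It was searched on both strands in the 250 bases before the annotated start of each gene, and 5 of the 17 list members with a RefSeq promoter held it (29.4%), namely Myl9, Cnn2, Srf, Vcl and Filip1l. Over all tested genes with a promoter the share was 1.37% (152 of 11069), and over all 32851 promoters 1.47%. The list was drawn up as targets of SRF and YAP, so its larger share is no result of this comparison. Of genes at least 1.5-fold lower in E1705K, 2 of 38 held it (5.26%), namely Actc1 and Myl9, and of those at least 1.5-fold higher 0 of 31. The stretches below are shown with the CArG box in capitals, read in the direction of the gene (RefSeq, GRCm38.p6), for 2 genes that changed, Actc1 (chr2:114052878-114052957, minus strand) and Myl9 (chr2:156775268-156775347, plus strand), and for Srf (chr17:46556180-46556279, minus strand), which holds 2 boxes and was not called.
Actc1: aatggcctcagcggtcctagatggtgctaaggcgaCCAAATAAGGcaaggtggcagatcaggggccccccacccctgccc
Myl9: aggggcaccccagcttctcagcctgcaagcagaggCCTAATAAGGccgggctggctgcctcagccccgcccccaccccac
Srf: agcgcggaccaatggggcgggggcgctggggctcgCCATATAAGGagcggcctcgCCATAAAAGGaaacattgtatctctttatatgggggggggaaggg
A match describes these letters, and binding of SRF was not measured. The box therefore stands before genes that were called and before genes that were not.

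Transgelin and alpha-smooth muscle actin also mark fibroblasts, which can serve as feeders for ES cells. Of 10 fibroblast markers (Col1a1, Col1a2, Col3a1, Thy1, Pdgfrb, Dcn, Lum, Postn, Twist1 and Fap), 3 (Lum, Postn and Fap) lay under 6.42 on all 6 arrays and 1 (Twist1) was called. The mean level of the 10 markers was 6.46 to 6.52 on the E1705K arrays and 6.46 to 6.64 on the D1810Y arrays. Collagen genes were not called, with differences of -0.01 for Col1a1, 0.00 for Col1a2 and 0.05 for Col3a1. Twist1, a transcription factor of mesenchyme, was lower in E1705K (6.92, 6.99 and 6.92 against 7.57, 7.41 and 7.36), and Dcn, which missed the filter, read 6.20 to 6.46 against 6.92 to 7.02. In the wider list of fibroblast or feeder genes, 4 of 13 tested were called lower and 0 higher (median 0.00), against 7.32% and 9.54% of all genes. Those called were Tagln, Twist1, Twist2 (-0.37, adjusted p = 0.0183, limma) and Acta2. Without array 1 or 3 of E1705K or array 3 of D1810Y, 2 of them were called, and their part in the muscle gene differences was not tested. Fewer cells of a type and less RNA per cell cannot be told apart in these bulk samples.

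**Figure D3:**
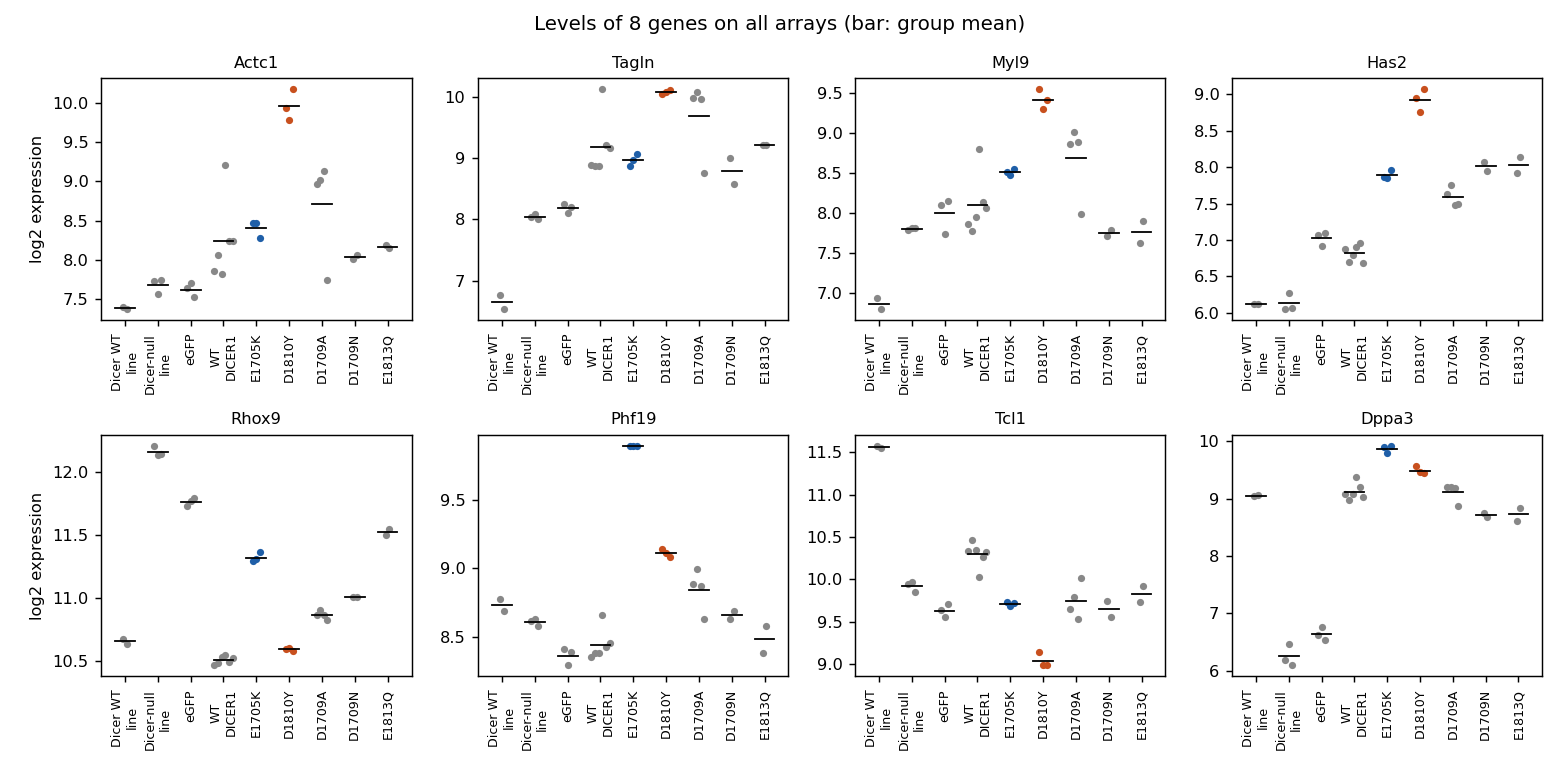
Log2 levels of 8 genes on all 28 arrays, 1 point per array, with a bar at the mean of each group; E1705K is blue, D1810Y orange and all other groups grey. Actc1, Tagln, Myl9 and Has2 are higher on the D1810Y arrays and Rhox9, Phf19, Tcl1 and Dppa3 on the E1705K arrays, and the fourth arrays of D1709A and of wild-type DICER1 stand apart from their groups for Actc1, Tagln and Myl9.

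In a list of matrix and adhesion genes more members were lower than higher in E1705K. Of 28 tested, 12 were called lower and 4 higher (median -0.14), against 7.32% and 9.54% of all genes. With the replicate block 15 were lower and 5 higher, against 18% and 23.6%. The 4 called higher were Nid1 (0.27), Lama1 (0.25), Itga6 (0.19) and Fn1 (0.18), which encode basement membrane proteins, a laminin receptor subunit and fibronectin. Nid1 and Itga6 lost their call without any 1 of the 6 arrays, which left 2 members called higher. Their error is estimated from all groups. Without arrays 4 of D1709A and of wild-type DICER1 their adjusted p was 7.53e-07 and 8.84e-05 in limma. Thbs1, the matrix protein thrombospondin, read 9.98, 9.93 and 9.97 in E1705K and 10.82, 10.69 and 10.73 in D1810Y, 1.73-fold lower. Cd44, the receptor for hyaluronan, read 6.604, 6.59 and 6.71 against 7.23, 7.13 and 7.08, 1.43-fold lower. Itgb1, the common integrin beta subunit, had a difference of -0.49 (adjusted p = 2.5e-09, limma), and Vim, an intermediate filament of mesenchyme, one of -0.33. Cdh1 (0.03) and Epcam (0.08), epithelial adhesion genes, were not called.

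Has2, which makes hyaluronan, read 7.87, 7.85 and 7.96 in E1705K and 8.95, 8.76 and 9.07 in D1810Y. It was 2.05-fold lower in E1705K (difference -1.03, SE 0.09, adjusted p = 6.79e-08, limma). D1810Y had the highest Has2 level of the 9 groups, and E1705K lay beside D1709N (median 8.01) and E1813Q (8.03). Cav1, the coat protein of caveolae, read 6.78, 6.86 and 7.13 against 7.74, 7.77 and 7.72, 1.76-fold lower. Both genes thus follow the direction of Cd44 and of the muscle genes.

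Immediate early genes and genes induced by ERK signalling were called in both directions. Of 28 tested, 7 were called lower and 3 higher in E1705K (median -0.05), against 7.32% and 9.54% of all genes. With the replicate block 12 were lower and 7 higher, against 18% and 23.6%. Without arrays 4 of D1709A and of wild-type DICER1, 10 were lower and 4 higher, against 1738 and 2249 of all 13956 genes. Without array 1 or array 3 of E1705K, or array 2 or array 3 of D1810Y, 2 were called higher. Those lower were led by Phlda1 (7.88, 7.49 and 7.63 against 8.39, 8.22 and 8.31; difference -0.64), Atf3 (-0.54), a stress-induced transcription factor, and the ephrin receptor Epha2 (10.43, 10.46 and 10.42 against 10.996, 10.92 and 10.93; -0.51). Dusp6 (-0.44), an ERK phosphatase, was lower too, while Junb (0.27), Dusp1 (0.26) and Spred2 (0.18) were higher, the last not called without the same 4 arrays singly (adjusted p of up to 0.137). Fos (0.04) and Egr1 (-0.17) were not called.

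Of 19 tested genes of the primed epiblast and early ectoderm, 8 were called lower in E1705K and 0 higher, against 7.32% and 9.54% of all genes. The median was -0.26, and 16 were lower with the replicate block, against 18% of all genes. All 19 differences were below 0, from -0.61 to -0.01. The number called depended on the arrays. It was 3 without array 1 of D1810Y, 4 without any 1 of the E1705K arrays and 5 without array 3 of D1810Y. Without arrays 4 of D1709A and of wild-type DICER1 it was 13, against 1738 of all 13956 genes called lower. With array sets inferred from the linear relations and the vectors as a block, 4 were called. The list mean lay at 9.16 to 9.19 on the E1705K arrays and at 9.42 to 9.50 on the D1810Y arrays.

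Zic2, a zinc finger factor of the epiblast and neural plate, read 9.65, 9.61 and 9.65 in E1705K and 10.16, 10.13 and 10.08 in D1810Y, 1.40-fold lower with an adjusted p of 1.02e-04 in limma. Pou3f1 (-0.40) and Zic5 (-0.34), transcription factors of the same stage, and Cldn6 (-0.18), a tight junction protein, were also called lower, although Pou3f1 was not without array 1 of D1810Y (adjusted p = 0.0529) and Zic5 not in 4 of the 6 fits without 1 array (up to 0.113). Fgf5, the classical marker of the primed epiblast, read 7.82, 7.92 and 7.68 against 8.21, 8.10 and 8.42 (difference -0.44, adjusted p = 0.0206, limma). Nes, the intermediate filament nestin, read 7.89, 7.68 and 7.79 against 8.65, 8.32 and 8.23 (-0.61, adjusted p = 0.0301, limma). Fgf5 was not called without array 1 or 3 of E1705K or array 3 of D1810Y (adjusted p of up to 0.120). Nes was called only without array 3 of D1810Y among the 6 fits that left out 1 array, with an adjusted p of up to 0.148 in limma otherwise. Without arrays 4 of D1709A and of wild-type DICER1 the adjusted p in limma was 6e-06 for Nes, 3.22e-04 for Fgf5 and 2.2e-05 for Zic5. Otx2 (-0.10), Dnmt3b (-0.23) and Dnmt3a (-0.09), other genes of the primed state, were not called.

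Of 32 pluripotency genes, 16 were called higher and 1 lower in E1705K (median 0.13), against 9.54% and 7.32% of all genes. With the replicate block 22 were higher and 3 lower, against 23.6% and 18%. Without arrays 4 of D1709A and of wild-type DICER1, 19 were called higher and 2 lower. Tcl1, a co-activator of the kinase AKT, read 9.73, 9.69 and 9.72 in E1705K and 9.14, 8.98 and 8.99 in D1810Y, 1.60-fold higher (adjusted p = 2.61e-05, limma). Prdm14, a repressor that guards the naive state and founds the germline, read 8.74, 8.48 and 8.58 against 8.24, 7.98 and 8.12, 1.41-fold higher. Dppa3, a maternal protein that protects methylated DNA, read 9.89, 9.79 and 9.92 against 9.56, 9.46 and 9.44, 1.30-fold higher.

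The core factors differed less. Nanog differed by 0.13, Sox2 by 0.22, Esrrb by 0.22, Klf4 by 0.25 and Tfcp2l1 by 0.24, all called higher, with Klf4 lost without array 1 or 2 of E1705K or array 3 of D1810Y (adjusted p of up to 0.0840, limma), while Pou5f1 (-0.03), Klf2 (-0.01) and Sall4 (-0.02) were not called. Pou5f1 and Nanog stood at 12.59 or above on all 6 arrays, as markers of ES cells. Gdf3, a TGF-beta family ligand, was the only member called lower (-0.35). Fgf4 (0.31) was called (adjusted p = 0.0206, limma) and was lost without array 1 or 3 of E1705K or array 2 or 3 of D1810Y (adjusted p of up to 0.0804). The DNA demethylases Tet1 (12.82, 12.90 and 12.90 against 12.65, 12.61 and 12.66) and Tet2 (11.08, 11.03 and 11.10 against 10.75, 10.72 and 10.70) were both higher in E1705K.

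Of 17 tested germline genes, 8 were called higher in E1705K and 0 lower (median 0.21), against 9.54% and 7.32% of all genes. With the replicate block 9 were higher and 0 lower, against 23.6% and 18%. Rhox9, a homeobox gene of the X-linked reproductive cluster, read 11.29, 11.31 and 11.36 in E1705K and 10.60, 10.60 and 10.58 in D1810Y, 1.66-fold higher (difference 0.73, SE 0.03, adjusted p = 1.45e-13, limma). Rhox6 read 10.12, 10.29 and 10.29 against 9.43, 9.58 and 9.46, 1.67-fold higher. Rhox1, of the same cluster, was 1.38-fold higher. The 3 Rhox genes are neighbours with similar sequences, so probes of one may read RNA of another.

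Prdm1, the repressor that specifies primordial germ cells, read 9.32, 9.18 and 9.30 in E1705K and 8.88, 8.55 and 8.61 in D1810Y (difference 0.59). Kit, the receptor tyrosine kinase of germ cells, read 10.70, 10.73 and 10.78 against 10.26, 10.27 and 10.31 (0.46). Dazl (0.55), an RNA-binding protein of germ cells, Sycp3 (0.49), Sohlh2 (0.46) and Hormad1 (0.42), genes of meiosis, were called as well, with Sycp3 lost without array 3 of E1705K or array 2 of D1810Y (adjusted p of up to 0.120). Ddx4 (0.03), Mael (0.01), Rec8 (0.01) and Tex19.1 (0.01) were not, so the germline list did not move as a whole. Usp26, an X-linked deubiquitinase of the testis, read 7.26, 7.13 and 7.33 in E1705K and 6.21, 6.16 and 6.34 in D1810Y, called higher with no size given because the D1810Y mean lies under the filter level. On the X chromosome 14.1% of 433 tested genes were called higher and 10.2% lower, against 9.54% and 7.32% of all genes.

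Rhox9 was ordered differently across the groups than the pluripotency genes. Its median was 12.15 in the untransduced Dicer-/- line, 11.77 in eGFP cells and 11.52 in E1813Q, above the 11.31 of E1705K, and 10.51 in wild-type DICER1 cells, close to the 10.60 of D1810Y. Tcl1 was highest in the Dicer+/+ line (11.57) and in wild-type DICER1 cells (10.33), and D1810Y held its lowest level. Dppa3 was lowest in the untransduced Dicer-/- line (6.20) and highest in E1705K (9.89). These 3 genes, all higher in E1705K than in D1810Y, thus differ in which of the mutants lies nearer to wild-type DICER1.

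**Figure D4:**
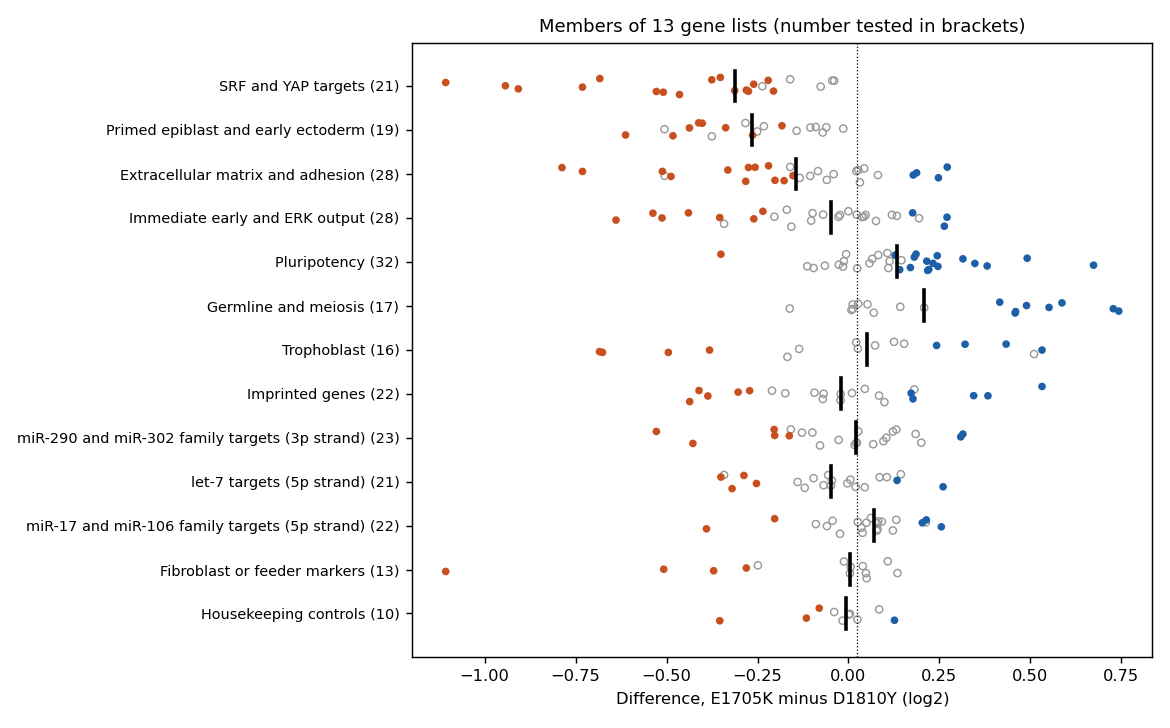
Log2 differences E1705K minus D1810Y of the tested members of 13 gene lists, 1 point per gene, filled where called (blue higher, orange lower) and open where not; the black bar is the list's median and the dotted line the median of all genes tested, 0.02. SRF and YAP targets (median -0.31) and primed genes (-0.26) lie to the left, and pluripotency (0.13) and germline genes (0.21) to the right.

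Among markers of trophoblast, 4 of 16 were called in each direction, against 9.54% of all genes higher and 7.32% lower. With the replicate block 6 were higher and 4 lower, against 23.6% and 18%. The simple epithelial keratins Krt18 (10.43, 10.40 and 10.47 against 11.08, 11.14 and 11.14; difference -0.68), Krt19 (8.22, 8.16 and 8.32 against 8.96, 8.84 and 8.94; -0.68) and Krt8 (-0.50) were lower in E1705K, as was the trophectoderm factor Cdx2 (-0.38). Ascl2, an imprinted transcription factor of the trophoblast, was higher (9.42, 9.31 and 9.09 against 8.82, 8.61 and 8.79; 0.53), as were Plac1 (0.43), Tfap2c (0.32) and Krt7 (0.24). Plac1 was called in only 1 of the 6 fits without 1 array (adjusted p of up to 0.158 in limma otherwise). Its adjusted p was 4.72e-04 in limma without arrays 4 of D1709A and of wild-type DICER1. Gata3 (0.03), Eomes (-0.14) and Hand1 (0.13) were not called. The keratins thus moved apart from most defining trophoblast factors, and Krt7 moved against Krt8, Krt18 and Krt19.

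Reported targets of miRNAs showed no common direction. The families below differ in the strand they use, and the mature sequences of 1 member each are shown with the seed in capitals (RefSeq), since an RNase IIIb mutant is known to lose 5p strands.
mmu-miR-302b-3p: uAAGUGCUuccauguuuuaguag
mmu-miR-294-3p: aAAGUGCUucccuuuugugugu
mmu-miR-17-5p: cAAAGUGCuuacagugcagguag
mmu-let-7a-5p: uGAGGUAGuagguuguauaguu
The miR-302 and miR-290 members share their seed, and that of miR-17 is the same run of letters shifted along the strand.

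Of 23 tested targets of the family that joins miR-290 with miR-302, 5 were called lower and 2 higher in E1705K (median 0.02). The shares of all genes were 7.32% and 9.54%. With the replicate block 6 were lower and 6 higher, against 18% and 23.6%. Lats2, a kinase that holds YAP back, read 7.45, 7.27 and 7.46 in E1705K and 8.03, 7.83 and 7.91 in D1810Y (difference -0.53), and Btg2, an antiproliferative gene, read 9.36, 9.37 and 9.40 against 9.86, 9.76 and 9.79 (-0.43). Lefty2 (0.31), an inhibitor of Nodal, was higher, and was not called without array 3 of E1705K (adjusted p = 0.0510, limma). The higher count was 0 without array 3 of E1705K and 1 without array 1 of E1705K or arrays 2 or 3 of D1810Y, and the lower count 3 without array 1 or 2 of E1705K or arrays 2 or 3 of D1810Y. With arrays 4 of D1709A and of wild-type DICER1 left out, 6 were lower and 5 higher, against 1738 and 2249 of all 13956 genes. Lats2 is also a member of the SRF and YAP list.

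Of 21 let-7 targets, 4 were lower and 2 higher (median -0.05), against 7.32% and 9.54% of all genes. With the replicate block 8 were lower and 3 higher, against 18% and 23.6%. The counts were 7 and 3 without arrays 4 of D1709A and of wild-type DICER1, against 1738 and 2249 of all 13956 genes. Without array 3 of D1810Y, 1 was higher. The oncofetal chromatin protein Hmga2 read 9.17, 9.20 and 9.27 in E1705K and 9.55, 9.54 and 9.51 in D1810Y (difference -0.32), and Tgfbr1, a TGF-beta receptor, differed by -0.29. Lin28a (-0.10), Lin28b (-0.07), Trim71 (-0.05) and Igf2bp1 (-0.14), the classical targets, were not called. Of 22 targets of the family that joins miR-17 with miR-106, 2 were lower and 3 higher (median 0.07). With the replicate block 2 were lower and 10 higher, against the same shares of all genes as for let-7. These targets were led by Zfpm2 (-0.39) and by Rbl1 (0.26), a pocket protein of the cell cycle. The 3 called higher became 1 without array 3 of E1705K or array 2 of D1810Y, and the 2 called lower became 1 without array 1 or 2 of E1705K or array 2 or 3 of D1810Y.

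The genes of the miRNA pathway itself showed small differences in both directions. Of 25 tested, 3 were called lower and 2 higher in E1705K (median -0.01), against 7.32% and 9.54% of all genes. With the replicate block 8 were lower and 5 higher, against 18% and 23.6%. The counts were 6 and 2 without arrays 4 of D1709A and of wild-type DICER1, against 1738 and 2249 of all 13956 genes. The changed genes were Tnrc6a (10.36, 10.37 and 10.45 against 10.64, 10.65 and 10.65; difference -0.25) and Tnrc6c (0.24), scaffolds of the silencing complex, Prkra (-0.31), a partner of Dicer, Ran (-0.22), which drives nuclear export of precursors, and Tut7 (0.23), which adds uridine to them. Drosha (-0.01), Dgcr8 (0.08), Ago2 (0.07) and Xpo5 (-0.11) were not called. Of the 6 fits without 1 array, Ran lost its call in all, Prkra and Tut7 in 4 and Tnrc6c in 2, with adjusted p of up to 0.234 in limma. Without arrays 4 of D1709A and of wild-type DICER1 it was 2.92e-04 for Ran, 0.00828 for Prkra, 0.00212 for Tut7 and 5.27e-04 for Tnrc6c. Without 1 array the higher count lay between 0 and 2, reaching 0 without array 2 or 3 of D1810Y and 1 without array 1 or 3 of E1705K, and the lower count was 1 without array 1 or 2 of E1705K or array 1 or 3 of D1810Y.

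Signalling and patterning genes included further large differences. Sp5, a direct target of Wnt signalling, read 7.13, 7.31 and 7.19 in E1705K and 7.99, 7.78 and 7.87 in D1810Y (difference -0.67). The ligands Wnt3 (-0.58) and Wnt5a (-0.42) were lower too, while Wnt7b (0.38) was higher, a call lost without array 2 of D1810Y (adjusted p = 0.0626). Of 21 Wnt genes 5 were lower and 3 higher, against 7.32% and 9.54% of all genes. With the replicate block 8 were lower and 6 higher, against 18% and 23.6%. The counts were 7 and 5 without arrays 4 of D1709A and of wild-type DICER1, against 1738 and 2249 of all 13956 genes. Without 1 array the higher count fell to 0 (array 2 of D1810Y) or 1 (array 3 of either mutant), and the lower count was 3 for each array left out.

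Fst, the activin antagonist follistatin, read 8.52, 8.57 and 8.64 in E1705K and 9.38, 9.22 and 9.42 in D1810Y, 1.70-fold lower. Of 22 genes of Nodal, Activin and BMP signalling, 3 were lower and 2 higher, against 7.32% and 9.54% of all genes. With the replicate block 6 were lower and 7 higher, against 18% and 23.6%. In that list 1 was higher without array 3 of E1705K. Without arrays 4 of D1709A and of wild-type DICER1, 5 were lower and 4 higher, against 1738 and 2249 of all 13956 genes. The homeobox genes Meis2 (7.45, 7.29 and 7.45 against 8.34, 8.18 and 8.37; difference -0.90) and Meis1 (-0.56) were the 2 called lower of 14 retinoic acid and Hox genes. Crabp1 (0.41), which binds retinoic acid in the cytoplasm, was the 1 called higher. Over all genes 7.32% were called lower and 9.54% higher. With the replicate block 6 of the 14 were lower and 2 higher, against 18% and 23.6% of all genes.

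Metabolic genes with called differences included enzymes of glycolysis and of lipid synthesis. Pfkp, a phosphofructokinase, read 10.53, 10.57 and 10.65 in E1705K and 9.95, 9.93 and 9.90 in D1810Y (difference 0.66), while Pfkfb3, which makes the activator of that enzyme, was lower (-0.48). Of 26 hypoxia and glycolysis genes 3 were called in each direction (median 0.07), against 9.54% of all genes higher and 7.32% lower. With the replicate block 14 were higher and 3 lower, against 23.6% and 18%. With arrays 4 of D1709A and of wild-type DICER1 left out, 11 were higher and 3 lower, against 2249 and 1738 of all 13956 genes. Hypoxia counts with 1 of the 6 arrays left out lay between 2 and 3 each way. Egln3, the prolyl hydroxylase induced by hypoxia, was 1.71-fold higher (9.85, 9.89 and 9.89 against 9.13, 9.04 and 9.14; adjusted p = 0.0279, limma), and its call was lost without any 1 of the 6 arrays (adjusted p of up to 0.0806). Without arrays 4 of D1709A and of wild-type DICER1 its adjusted p was 2.9e-11 in limma. Xbp1, a factor of the unfolded protein response, read 11.67, 11.72 and 11.75 against 11.35, 11.28 and 11.34 (0.39). Scd1, a fatty acid desaturase, read 11.58, 11.63 and 11.59 against 11.15, 11.07 and 11.09 (0.50). Fbp1, the gluconeogenic fructose bisphosphatase, was 1.82-fold lower (6.596, 6.72 and 6.69 against 7.59, 7.47 and 7.54).

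Several of the largest differences belonged to none of these groups. Penk, which encodes the enkephalin precursor, read 7.95, 7.72 and 7.996 in E1705K and 9.03, 8.94 and 8.99 in D1810Y, 2.14-fold lower (SE 0.10, adjusted p = 7.52e-08, limma). Car3, a carbonic anhydrase of muscle and fat, read 8.40, 8.17 and 8.29 against 9.38, 9.25 and 9.41, 2.08-fold lower. For Car3 both mutants stood above the medians of all other groups, of which D1709A came next at 8.04. Epha1, an ephrin receptor, read 8.69, 8.54 and 8.68 against 9.61, 9.35 and 9.43, 1.77-fold lower. Cyp2b23, a cytochrome P450, was 1.94-fold lower.

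Among genes higher in E1705K, Phf19, a Polycomb accessory protein, read 9.89, 9.90 and 9.89 against 9.14, 9.11 and 9.08, 1.72-fold higher (adjusted p = 1.66e-07, limma). E1705K held its highest level of the 9 groups, whose other medians ran from 8.38 in eGFP cells to 9.11 in D1810Y. Lrrc2, a leucine-rich repeat protein, read 10.44, 10.51 and 10.51 against 9.66, 9.63 and 9.74, 1.75-fold higher. As3mt, the arsenite methyltransferase, was 1.72-fold higher (8.58, 8.49 and 8.65 against 7.90, 7.71 and 7.78). Ceacam1, a cell adhesion protein, was 1.67-fold higher (9.59, 9.63 and 9.61 against 8.90, 8.82 and 8.88), Lgals9, which encodes galectin-9, 1.66-fold higher and Fam183b 1.86-fold higher. Adgrf5, an adhesion receptor, was called higher at 6.97, 6.96 and 7.11, with D1810Y under the filter level.

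The position of the pair among the other groups was read from 94 genes changed at least 1.5-fold. Wild-type DICER1 cells lay nearer to E1705K than to D1810Y for 45 of the 57 genes lower in E1705K and for 25 of the 37 genes higher. D1709A lay nearer to E1705K for 34 of 57 and 18 of 37, D1709N for 43 and 24, E1813Q for 36 and 26, and eGFP for 40 and 19. These are counts of group means, with no test, and the genes were chosen for their difference in this pair. For Actc1 the medians were 8.15 in wild-type DICER1, 8.997 in D1709A, 8.04 in D1709N and 8.17 in E1813Q, against 8.47 in E1705K and 9.94 in D1810Y. For Tagln D1709A (9.97) lay beside D1810Y (10.07) and the other mutants (8.79 and 9.21) beside E1705K (8.97).

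D1709A, the other mutant in the ENvA vector, was set against each of the pair in the same model. It differed from E1705K in 2298 called genes (16.5%), of which 143 (1.02%) changed at least 1.5-fold, and from D1810Y in 2508 (18%), of which 189 (1.35%) did. Without arrays 4 of D1709A and of wild-type DICER1 these were 3593 and 152 for E1705K, and 2908 and 158 for D1810Y. The pair itself differed in 2353 genes, 94 of them at least 1.5-fold, and in 3987 and 96 without those arrays. The 3 comparisons share arrays and group sizes differ, so their counts were not tested against each other.

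The pair was also set on 1 scale with a score of the Dicer-null state. The score is the mean log2 level of 200 genes higher in the untransduced Dicer-/- line than in the Dicer+/+ line minus that of 200 genes lower, and the transgene groups did not define it. It was -0.47, -0.40 and -0.46 on the E1705K arrays and -0.23, -0.21 and -0.25 on the D1810Y arrays. The difference was -0.22 with no overlap, and an exact two-sided permutation test gave p = 0.1, the smallest p that 3 against 3 arrays allow. E1705K thus lay further from the Dicer-null line than D1810Y did on all arrays, with a mean of -0.45 ± 0.04 (SD, n = 3) against -0.23 ± 0.02 (SD, n = 3). Wild-type DICER1 cells had -0.57 ± 0.10 (SD, n = 6), eGFP cells 1.35 ± 0.01 (SD, n = 3), and E1813Q -0.19 ± 0.01 (SD, n = 2).

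**Figure D5:**
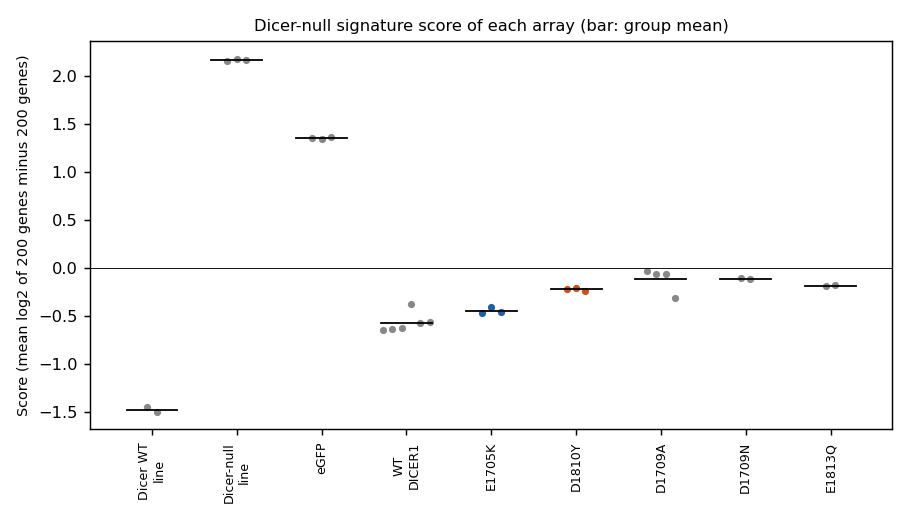
Dicer-null signature score of each of the 28 arrays by group, 1 point per array with a bar at the group mean; higher values are closer to the untransduced Dicer-/- line. E1705K arrays (-0.47 to -0.40) lie below D1810Y arrays (-0.25 to -0.21), and all transgenes other than eGFP lie below 0.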

How the data were processed

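RNA of 28 samples was hybridised to Affymetrix Mouse Gene ST arrays, 1 array per sample. The authors deposited log2 expression values per probe set, made with RMA (background correction, normalisation and probe summary) and Partek 6.6, per the submitters' processing notes; the sources used here do not give their settings. Of 35556 probe sets, the 21789 with 1 gene symbol in the platform annotation were used (1621 had several, 12146 none), and the highest mean represented each of 19938 symbols. Genes whose mean over all 28 arrays lay under the 30th percentile (6.42) were left out. This left 13956 genes, of which 13915 matched the GRCm38.p6 table. All 28 arrays entered 1 model in limma 3.58.1 (R 4.3.3) with 9 groups, a term for the PGKnvA vector and a variance trend. P-values were two-sided and adjusted by Benjamini-Hochberg over all genes, and the method was tested on simulated data. Named genes were Dicer1, the 12 largest called changes each way whose arrays did not overlap, and up to 3 called members of each of 30 lists, with predicted genes, Rik and LOC symbols, miRNAs, snoRNAs, olfactory and vomeronasal receptors and immune segments left out of the largest changes; other members are named to show their list. The comparison, lists and named-gene rule were chosen with earlier results of these data known.

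Replicate numbers, taken from the titles, were treated as pairs because the deviations of same-numbered arrays correlated in every pair (0.47, 0.68 and 0.21, all above 0.1). Array 3 of E1705K also correlated with array 1 of D1810Y (0.41). Over all probe sets, 3 singular values were at most 0.00233 and the next 24.1; deviations of the first arrays of E1705K, D1709A, wild-type DICER1 and both untransduced lines summed to 0 within 1.83e-04.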

Additional observations from a re-analysis of the deposited data

Results flagged for a closer look

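Levels of 17 quantities were screened in D1709A (4 arrays) and wild-type DICER1 (6 arrays), the groups large enough for a gap test, in which chance marks about 1 group in 20. In D1709A, array 4 lay far from the other arrays for the Dicer-null score (-0.31), Actc1 (7.75), Tagln (8.76), Cnn1 (7.62), Myl9 (7.98), Car3 (7.05) and Dppa3 (8.87). In wild-type DICER1, array 4 lay far from the others for the score (-0.38), Actc1 (9.21), Tagln (10.12), Cnn1 (10.06), Myl9 (8.80), Phf19 (8.66) and Dicer1 (9.44). Actc1, Tagln, Cnn1 and Myl9 were low on array 4 of D1709A and high on array 4 of wild-type DICER1. A linear relation between the deposited values ties these arrays to each other, so their departures are not independent. The 4 genes were named for their difference between E1705K and D1810Y, so their presence here is no separate finding. Neither array belongs to the E1705K or D1810Y groups. Their part in the estimated spread is shown by the counts without them, 3987 called genes against 2353.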

How the results depend on the processing

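Against 2353 called genes, 3824 were called in a fit of only the 6 arrays, 5799 with those 6 arrays and a replicate block, 4372 with 18 arrays and a replicate block, 6974 with array weights and, in an alternative added after seeing the data, 3987 without arrays 4 of D1709A and wild-type DICER1. Leaving out 1 of the 6 arrays gave 1641 to 1779 called genes and 84 to 107 changed at least 1.5-fold. The labels name no sets of arrays, and sets were inferred from the linear relations and the vectors. Array 1 of E1705K falls in an inferred set with no D1810Y array. Without that array 1670 genes were called, and with the inferred array set as a block (also added later) 1756. Counts of genes changed at least 1.5-fold stayed between 64 and 110 under all alternatives. Without a filter 2138 of 19938 genes were called. The 92 called named genes kept their direction under all 20 alternatives in which each was tested, and 76 stayed called in all. The replicate block ended no call among them, nor did leaving out arrays 4 of D1709A and wild-type DICER1. The inferred array set as a block ended 7, namely Cnn1, Nes, Egln3, Prkra, Ccnd2, Lrp2 and Rpl19 (adjusted p 0.0503 to 0.0844). Dicer1, not called, changed sign with median centring (-0.0124), array weights (-0.0214) and without array 3 of E1705K; with 1 array left out it ranged from -0.025 to 0.0493. The score difference ranged from -0.26 to -0.19 over the numbers of genes used and from -0.24 to -0.21 with 1 array left out. Few arrays and unmeasured background limit small changes and low levels.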
